A study of Arabidopsis thaliana with 24 samples.

Results

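Wild-type seedlings of Arabidopsis thaliana (Col-0) kept at 19 °C were compared between 2 sets of a chilling experiment, the ZT45 set and the ZT27 set, with 3 libraries in each. The members were chosen by their labels alone: all 6 wild-type libraries at 19 °C, of 24 libraries in 8 groups in the whole study. Both groups were the unchilled controls, carried no mutant allele and were grown for 11 days in a photoperiod of 12 h at 19 °C. They then spent 24 h in constant light and stayed in it at 19 °C. Each library was made from the polyadenylated RNA of a pool of 10 seedlings, and the 3 pools of a group were separate samples. Zeitgeber time (ZT) counts hours from dawn, so under a 12 h photoperiod the second subjective dawn falls at ZT48 and the subjective dusk before it at ZT36. The ZT45 controls ran beside plants chilled for 3 h, from ZT45 to ZT48, at the end of the subjective night. The ZT27 controls ran beside plants chilled for 5 h, from ZT27 to ZT32, in the subjective day. The labels do not state the hour at which the controls themselves were harvested. Time of day and hours spent in continuous light differ together between the groups and cannot be told apart. The other groups were wild type at 4 °C and sig5-3, an insertion line of the sigma factor gene SIG5, at 19 °C and at 4 °C, each in both sets.

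The plant circadian clock is a set of genes that repress or activate one another at successive times of the day. Morning MYB factors such as CCA1 and LHY repress evening genes, pseudo-response regulators follow through the day and repress the morning factors, and an evening complex closes the cycle. In constant light the loop keeps running, and it drives outputs in photosynthesis, starch turnover, pigment synthesis, cold responses and growth.

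Transcripts of the morning clock factors, of flavonoid synthesis, of the light response and of granule-bound starch synthase were higher in the ZT45 set. Transcripts of evening clock genes, of 10 of 19 starch breakdown genes and of cold-regulated genes were lower, while 6 of the 19 starch breakdown genes were higher. LHY had 304, 285 and 320.3 units in the ZT45 libraries, against 6.53, 6.88 and 9.25 in the ZT27 libraries. FKF1 stood at the other end, with 0.782, 0.80 and 0.473 units in the ZT45 libraries and 50.9, 43.8 and 41.7 in the ZT27 libraries. The unit is the deposited normalized read abundance per gene, which was not divided by gene length, so levels are compared between libraries and never between genes. Of 17952 genes with values, 3572 were higher and 3863 lower at ZT45 at an adjusted p under 0.05 (limma on log2(value + 0.5), Benjamini-Hochberg over all genes), which is 19.9% and 21.5% of those tested. Such genes are said to have passed. Genes that passed with a log2 fold change over 1.5 in size are called, and there were 271 called higher (1.51%) and 157 called lower (0.875%), 2.38% in both directions. In 4580 genes (25.5%) every ZT45 library was above every ZT27 library, and in 5225 genes (29.1%) every one was below. Of the 428 called genes 427 had no overlap between the groups. Fold changes over 3 in log2 size, on either side, were found in 42 higher and 27 lower genes, and the median over all genes was −0.02.

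**Figure D1:**
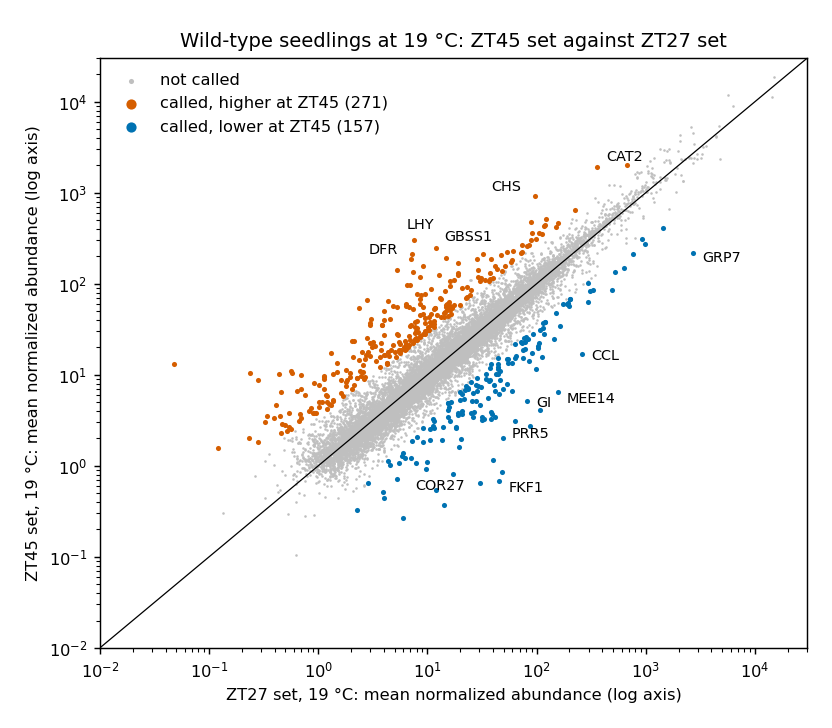
Mean normalized abundance of each of 17952 genes in the 3 ZT45 libraries (vertical, log axis) against the 3 ZT27 libraries (horizontal, log axis) of wild-type seedlings at 19 °C, with the line of equal values. The 271 genes called higher and the 157 called lower stand off the line on either side, from LHY and DFR above it to FKF1 and COR27 below it.

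The libraries of each group were close to each other. Pearson correlations of log2 values within a group were at least 0.993, and the first principal component of the 6 libraries held 84.8% of their variance, with the ZT45 libraries between 34.5 and 36.7 and the ZT27 libraries between −36.9 and −33.8. From the step between low values, the reads in the 17952 genes with values were estimated at 21274958 to 35946600 per library. Only 89.6% to 90.4% of low values were whole multiples of the step, so this figure is approximate. On that step 3 reads, the upper limit for a count of 0, corresponded to 0.0688 to 0.111 units. That limit covers counting error only. The median standard error (SE) of a log2 fold change was 0.0937. In whole seedlings a lower value can come from fewer cells of a type or from less RNA per cell, and these cannot be told apart.

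The MYB factors of the clock were higher at ZT45 with 1 exception. Of 10 measured members 9 passed higher and 1 lower, with a median log2 fold change of 2.24, and 5 were called. LHY, one of the pair of morning repressors at the core of the loop, rose by 5.25 ± 0.12 on the log2 scale (SE, n = 3 each), a 40.1-fold ratio of means, and every ± beside a log2 difference is its SE. Its partner CCA1 had 160.57, 152 and 159 units at ZT45, against 7.45, 8.73 and 11.0 at ZT27, a log2 difference of 4.06 ± 0.15. The 3 ZT45 libraries of both genes lay far above all 3 ZT27 libraries and close to one another. RVE8, a related MYB factor that activates evening genes, had 64.9, 64.7 and 67.2 units at ZT45 and 2.42, 2.89 and 3.12 at ZT27 (4.32 ± 0.14). ASG4, also known as RVE3, showed 11.0, 9.98 and 9.89 units at ZT45 and 0.342, 0.458 and 0.520 at ZT27, a log2 difference of 3.52 ± 0.17. RVE1, which links the clock to auxin synthesis, differed by 3.07 ± 0.18. The remaining RVE genes moved less: RVE4 by 1.41 ± 0.07, AT4G01280 (RVE5) by 1.01 ± 0.08, RVE2 by 0.70 ± 0.17 and AT5G52660 (RVE6) by 0.28 ± 0.10, the last with an adjusted p of 0.022 from limma that did not hold without either of ZT27 replicates 1 and 2 or ZT45 replicates 2 and 3 (0.057 to 0.092). RVE7 was the exception, at 5.75, 6.29 and 6.18 units at ZT45 and 17.1, 15.0 and 14.8 at ZT27, −1.29 ± 0.15 on the log2 scale.

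Pseudo-response regulators were lower where they passed, and the LNK genes were higher. Of 9 measured members 4 passed higher and 4 lower. PRR5, PRR7 and TOC1 encode repressors of CCA1 and LHY that act one after another through the day and evening. PRR5 had 2.35, 1.83 and 1.84 units at ZT45, against 55.9, 48.4 and 43.3 at ZT27, a log2 difference of −4.31 ± 0.10. PRR7 had 15.5, 14.5 and 16.6 units at ZT45 and 117, 109 and 109 at ZT27 (−2.81 ± 0.07). TOC1 had 22.7, 21.2 and 24.0 units at ZT45 and 109, 108 and 99.8 at ZT27 (−2.2 ± 0.06), and PRR3, which stabilizes the TOC1 protein, differed by −3.34 ± 0.11. In all 4 genes the groups were far apart. PRR9, the first of the family to be expressed after dawn, had 2.69, 2.09 and 3.66 units at ZT45, against 3.15, 4.46 and 3.96 at ZT27, and the groups overlapped (log2 difference −0.41 ± 0.23, adjusted p = 0.16, limma). This p was 0.045, at the same difference, when chilled sig5-3 replicate 1 of ZT27, outside this contrast, was left out. The LNK genes, which encode coactivators that work with RVE8, all passed higher. LNK3 differed by 2.47 ± 0.24, LNK2 by 2.05 ± 0.11, LNK4 by 1.62 ± 0.20 and LNK1 by 0.59 ± 0.13.

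None of the 14 evening genes passed higher, and 12 passed lower, with a median of −1.96 and 8 called. GI, which stabilizes the blue-light receptor ZTL and acts in photoperiodic flowering, had 4.89, 5.09 and 5.39 units at ZT45, against 92.3, 79.2 and 74.8 at ZT27 (−3.87 ± 0.11). FKF1, a blue-light receptor that pairs with GI to remove the CDF repressors, was lower by 66.3-fold in its means (−5.28 ± 0.10 on the log2 scale). The 3 genes of the evening complex differed in size. ELF4 had 3.91, 3.94 and 3.95 units at ZT45 and 26.7, 27.6 and 26.4 at ZT27 (−2.63 ± 0.12), LUX differed by −1.16 ± 0.06 and ELF3 by −0.83 ± 0.06, and BOA, a close relative of LUX, by −1.19 ± 0.15. CHE, which binds the CCA1 promoter, differed by −0.63 ± 0.12. Among the outputs, COR27, a repressor that shapes clock and cold responses, had 0.635, 0.543 and 0.789 units at ZT45, against 29.9, 29.7 and 31.0 at ZT27 (−4.74 ± 0.08), and its relative AT4G33980 (COR28) differed by −3.75 ± 0.13. GRP7, an RNA-binding protein that forms a feedback loop of its own, had 205, 242 and 206 units at ZT45 and 2812, 2672 and 2659 at ZT27 (−3.64 ± 0.13), and GRP8 differed by −2.11 ± 0.17. Neither of the 2 relatives of FKF1 passed: ZTL had 32.0, 31.8 and 32.7 units at ZT45 and 30.8, 31.3 and 28.2 at ZT27 (0.10 ± 0.08), and LKP2 had 9.93, 9.50 and 10.3 units at ZT45 and 11.5, 11.1 and 9.37 at ZT27 (−0.10 ± 0.08).

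**Figure D2:**
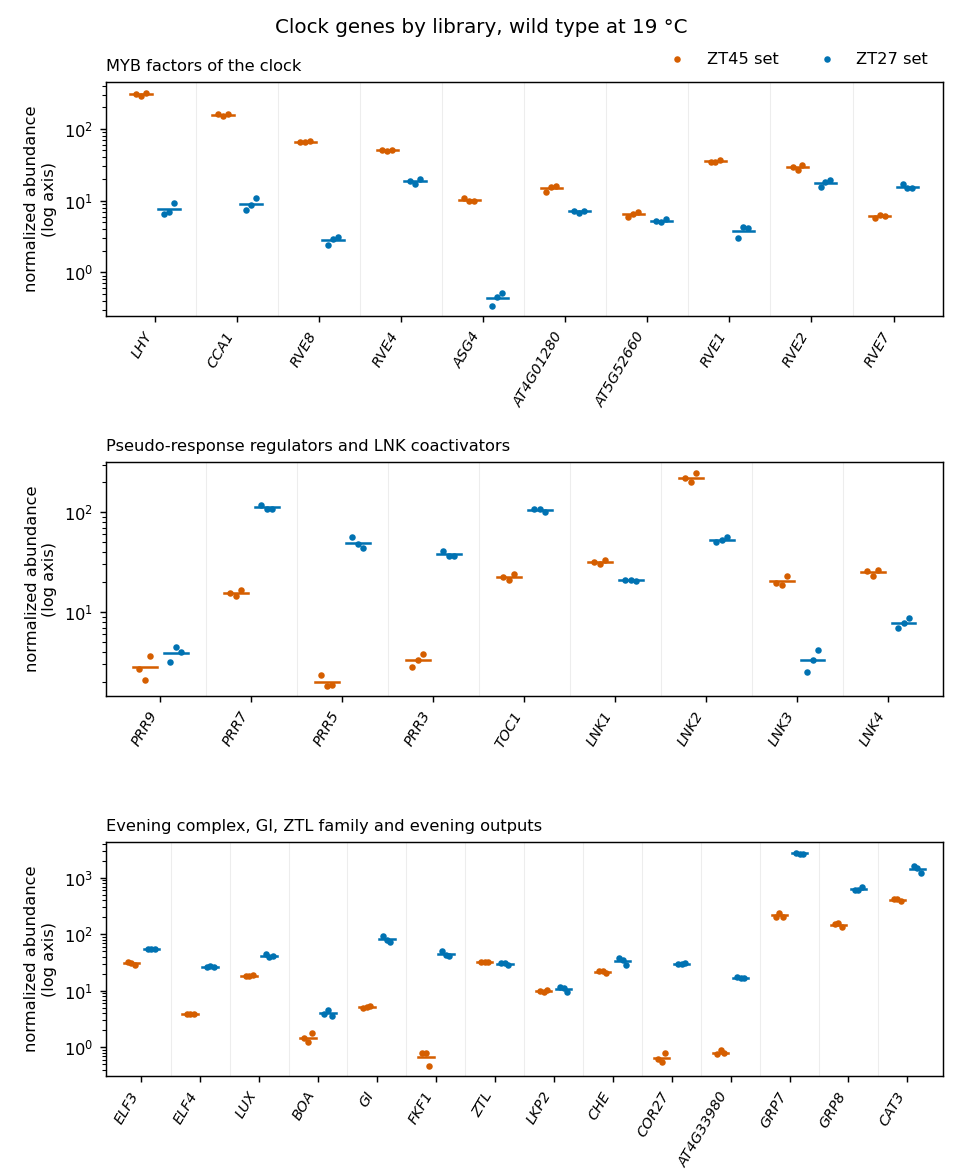
Normalized abundance (log axis) of the clock genes in each library, with ZT45 (orange) left of ZT27 (blue), 3 points a group and a bar at the mean. LHY, CCA1 and RVE8 stand above and GI, FKF1, COR27 and PRR5 below their ZT27 values by more than 10-fold, whereas the points of PRR9 and LKP2 overlap.

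Evening genes are known to carry the evening element, AAAATATCT, to which CCA1, LHY and the RVE factors bind, and many light-regulated genes carry the G-box, CACGTG, the core site of HY5 and the PIF factors. Both were searched on either strand in the 300 bases before the annotated start of each gene in the RefSeq annotation of TAIR10.1. The evening element was present in 22.3% of the 157 genes called lower at ZT45 (35 genes), in 1.85% of the 271 called higher (5 genes) and in 2.97% of 17951 genes searched. The G-box was present in 9.55% of the genes called lower, in 18.1% of those called higher (49 genes) and in 7.97% of all. The related CCA1-binding site AAAAATCT was present in 8.92%, 7.01% and 8.03% of these sets. Some called genes of the lists went against these shares. COL2 and FLS1 were higher at ZT45 and hold the evening element, and PRR7, PHS2 and DPE1 were lower and hold the G-box. Stretches of 9 promoters with these motifs were chosen as examples and are printed below. The first 6 belong to genes lower at ZT45 and hold the evening element, and the last 3 belong to genes higher at ZT45 and hold the G-box. Each is written 5′ to 3′ along the strand of its gene, in lower case, with the motifs in capitals. An evening element on the other strand reads AGATATTTT, and the capitals AGATTTTT in PRR5 are a CCA1-binding site on the other strand. In TAIR10.1 the PRR5 stretch lies at chr5:8358717-8358846 (minus strand), that of FKF1 at chr1:25508419-25508498 (plus strand), that of COR27 at chr5:17199911-17199990 (minus strand), that of GRP7 at chr2:9266558-9266657 (minus strand), that of TOC1 at chr5:24674783-24674862 (plus strand) and that of CAT3 at chr1:7142862-7142931 (plus strand). Those with the G-box lie at chr1:37922-37981 (minus strand) for LHY, at chr2:19245371-19245430 (plus strand) for CCA1 and at chr3:8085710-8085769 (minus strand) for ELIP1.
PRR5: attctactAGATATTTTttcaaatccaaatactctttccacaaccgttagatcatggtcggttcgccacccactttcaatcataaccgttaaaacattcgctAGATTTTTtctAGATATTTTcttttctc
FKF1: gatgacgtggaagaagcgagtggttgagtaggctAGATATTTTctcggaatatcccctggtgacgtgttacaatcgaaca
COR27: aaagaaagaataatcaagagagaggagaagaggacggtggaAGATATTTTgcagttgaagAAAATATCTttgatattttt
GRP7: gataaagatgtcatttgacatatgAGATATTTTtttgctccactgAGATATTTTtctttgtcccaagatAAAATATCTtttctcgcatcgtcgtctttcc
TOC1: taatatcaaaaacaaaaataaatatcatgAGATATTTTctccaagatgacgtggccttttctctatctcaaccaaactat
CAT3: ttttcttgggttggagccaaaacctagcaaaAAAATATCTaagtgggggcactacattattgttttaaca
LHY: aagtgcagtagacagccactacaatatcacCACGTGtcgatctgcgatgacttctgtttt
CCA1: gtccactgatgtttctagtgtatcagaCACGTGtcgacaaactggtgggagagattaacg
ELIP1: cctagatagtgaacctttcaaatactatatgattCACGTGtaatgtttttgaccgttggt
GRP7 holds 3 copies within 100 bases of its start, COR27 holds 2 within 80 bases and PRR5 holds 2 further out. A match of letters describes the sequence and does not show that a factor binds there.

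Regulators of photoperiodic flowering, among them CDF and CONSTANS-like genes, were mostly higher at ZT45. Of 10 measured members 6 passed higher and 1 lower, with a median of 0.31. COL2, a CONSTANS-like gene, had 78.5, 74.2 and 77.6 units at ZT45, against 7.31, 7.55 and 9.44 at ZT27 (3.18 ± 0.10), and COL1 had 58.8, 57.4 and 65.1 units at ZT45 and 5.10, 5.68 and 8.45 at ZT27 (3.17 ± 0.13). The repressors of CONSTANS behaved unequally: CDF2 differed by 2.27 ± 0.10, CDF1 by 1.06 ± 0.10 and CDF3 by 0.20 ± 0.06. AT1G69570, also in this list, did not pass (log2 difference −0.01). CO itself had 3.32, 3.92 and 2.97 units at ZT45 and 3.71, 3.12 and 3.72 at ZT27, overlapping, with a log2 difference of −0.04 ± 0.10. FT, the mobile flowering signal, had 1.2, 1.37 and 1.55 units at ZT45 and 0.869, 1.05 and 0.780 at ZT27 (0.42 ± 0.17, adjusted p = 0.048, limma), and this p ranged from 0.095 to 0.16 when ZT27 replicate 1 or 3, or ZT45 replicate 2 or 3, was left out. It was 0.056 at a pseudocount of 2 and 0.084 after quantile normalization. SOC1, a promoter of flowering, was lower, at 4.91, 5.06 and 6.60 units at ZT45 and 12.1, 12.0 and 13.5 at ZT27 (−1.12 ± 0.24).

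The growth genes with the largest differences were lower at ZT45. Of 13 measured members 2 passed higher and 7 lower (median −0.29), and HFR1, PIL1, IAA29 and YUC8 had no values. PIF4, a bHLH factor that promotes stem elongation at night's end and in warmth, had 7.21, 5.32 and 6.16 units at ZT45, against 50.1, 47.0 and 39.9 at ZT27 (−2.78 ± 0.12), with the ZT45 libraries all below. Its close relative PIF5 moved the other way, with 55.4, 49.0 and 55.9 units at ZT45 and 34.9, 33.7 and 34.8 at ZT27 (0.62 ± 0.08). The cell-wall expansin genes EXPA8 and EXPA11 differed by −1.53 ± 0.13 and −1.21 ± 0.09 on the log2 scale, while EXPA1 had 160.4, 155 and 154 units at ZT45 and 147, 135 and 146 at ZT27 and did not pass. EXPA1 had an adjusted p of 0.031 (limma) when chilled sig5-3 replicate 1 of ZT27, outside this contrast, was left out. The auxin-response gene IAA19 differed by −0.83 ± 0.16, and CKX5, the other member that passed higher (0.38 ± 0.13), did not pass without ZT27 replicate 1 or 2 or ZT45 replicate 3. PIF3 had 10.7, 10.15 and 11.8 units at ZT45 and 10.7, 10.9 and 11.4 at ZT27, with overlap.

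**Figure D3:**
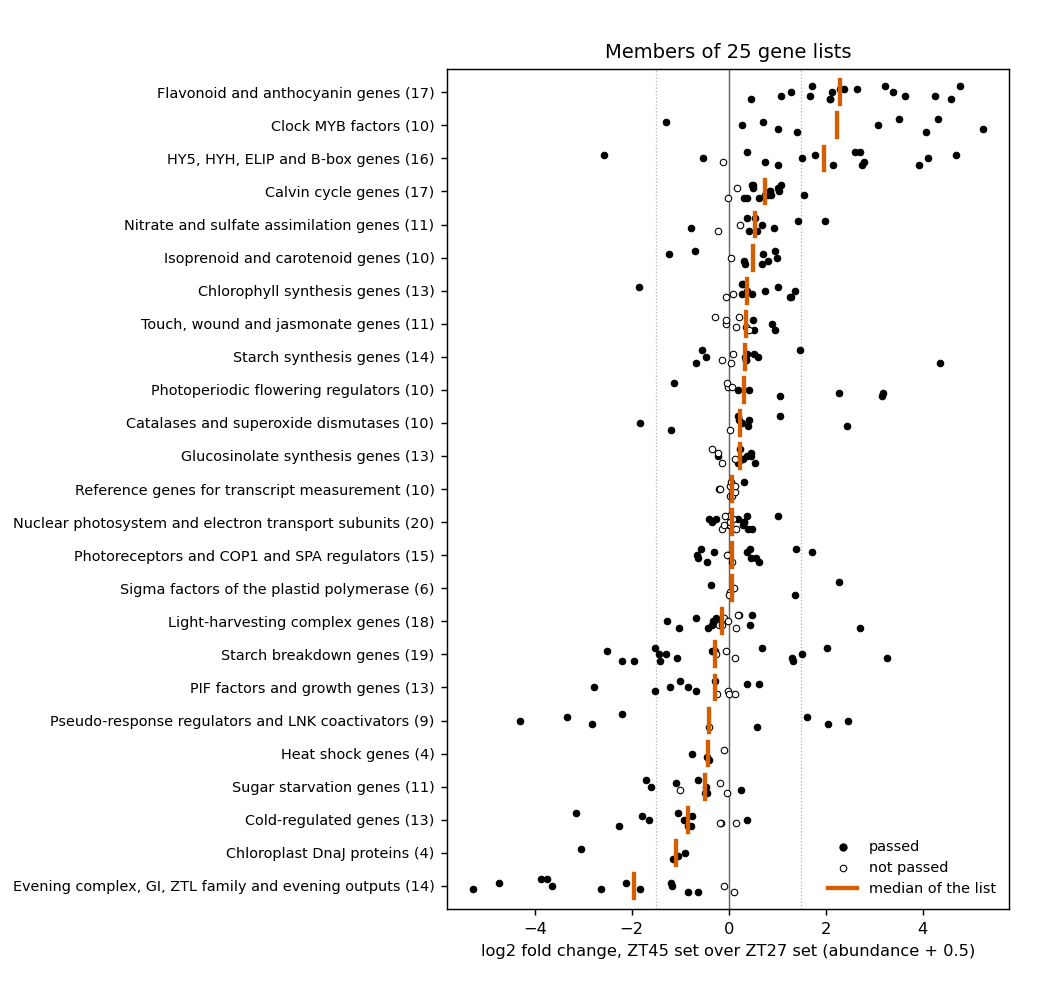
Log2 fold change, ZT45 over ZT27, of each measured member of 25 gene lists (number measured in brackets), with filled points for members that passed, open points for those that did not, and an orange bar at the list's median. Medians run from −1.96 in the evening genes to 2.29 in the flavonoid genes, and the dotted lines mark 1.5 in either direction.

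All 17 measured genes of flavonoid and anthocyanin synthesis passed higher at ZT45, with a median of 2.29, and 14 were called. The pathway turns phenylalanine into flavonols and red anthocyanins, and it is known to respond to light, sugar and the clock. At its entry, PAL1, which makes cinnamic acid, differed by 2.08 ± 0.10, and CHS, chalcone synthase, had 879.8, 1006 and 848 units at ZT45, against 98.7, 96.1 and 95.3 at ZT27 (3.23 ± 0.11). The late anthocyanin steps moved furthest. DFR, dihydroflavonol reductase, had 209, 258 and 174 units at ZT45 and 8.11, 6.46 and 7.06 at ZT27, a log2 difference of 4.78 ± 0.23. LDOX, the next enzyme, had 183, 224 and 152 units at ZT45 and 7.08, 7.4 and 6.95 at ZT27 (4.59 ± 0.19), and the glycosyltransferase gene UF3GT differed by 4.25 ± 0.17. ZT45 replicate 2 was the highest and replicate 3 the lowest of the ZT45 libraries in all 3 of these genes, and every ZT45 library stayed above every ZT27 library. FLS1, which turns the pathway towards flavonols, had 144, 147 and 138 units at ZT45 and 29.1, 29.0 and 28.5 at ZT27 (2.29 ± 0.09).

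Regulators of the pathway had smaller log2 differences than DFR, LDOX and UF3GT. TT8, a bHLH factor, had 9.97, 10.4 and 8.60 units at ZT45, against 0.895, 1.33 and 1.15 at ZT27 (2.65 ± 0.15), and PAP1, a MYB activator of anthocyanin genes, differed by 2.13 ± 0.19. The flavonol regulators differed among themselves: MYB11 had 1.81, 1.57 and 1.29 units at ZT45 and 0.158, 0.0917 and 0.111 at ZT27 (1.72 ± 0.13), MYB111 differed by 1.07 ± 0.13, and MYB12 overlapped, with 1.96, 1.63 and 1.13 units at ZT45 and 0.764, 1.28 and 0.966 at ZT27 (0.46 ± 0.15, adjusted p = 0.018, limma, with 0.059 to 0.13 without ZT27 replicate 1, ZT45 replicate 1 or ZT45 replicate 2, 0.063 at a pseudocount of 2 and 0.054 in a fit of the 6 libraries alone). The ZT27 values of MYB11 were near what 3 reads are worth, so its log2 difference depends on the pseudocount. PAP2 had no value. Several further genes of the pathway that were in no list were looked up after their values were seen. The anthocyanin 5-O-glucosyltransferase gene AT4G14090 differed by 3.70 ± 0.13, the acyltransferase gene AT5MAT by 3.31 ± 0.16, the flavonoid glucosyltransferase gene UGT78D2 by 2.68 ± 0.10 and CHIL, a helper of chalcone synthase, by 3.12 ± 0.11. MYBL2, a repressor of anthocyanin synthesis, went the other way, with 6.75, 6.49 and 8.02 units at ZT45 and 20.6, 24.3 and 26.4 at ZT27 (−1.68 ± 0.12).

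Of 16 measured genes of HY5, HYH, the ELIPs and the B-box factors, 13 passed higher and 2 lower (median 1.97), and 10 were called higher. HY5 is the bZIP factor at the centre of light responses, and it is joined by its relative HYH and by B-box cofactors. HYH had 56.9, 59.8 and 62 units at ZT45, against 6.0, 7.63 and 12.1 at ZT27 (2.78 ± 0.16), and HY5 had 15.3, 15.9 and 15.5 units at ZT45 and 6.19, 8.27 and 8.25 at ZT27 (1.01 ± 0.09). ELIP2 and ELIP1, which protect chloroplasts from excess light, were among the largest increases of all. ELIP2 had 134, 140.2 and 153 units at ZT45 and 3.85, 4.45 and 7.58 at ZT27 (4.68 ± 0.20). ELIP1 had 130.2, 141.03 and 134 units at ZT45 and 7.30, 7.59 and 7.10 at ZT27 (4.11 ± 0.12). BBX32 differed by 3.92 ± 0.16 from ZT27 values of 0.263, 0.413 and 0.0372 units, the last of which is below what 3 reads are worth. BBX25 and BBX18 differed by 2.75 ± 0.09 and 2.71 ± 0.09, and BBX31 by 2.60 ± 0.10. BBX22, an activator that works with HY5, was the main exception, at 6.45, 6.49 and 6.84 units at ZT45 and 43, 41.7 and 41.4 at ZT27 (−2.58 ± 0.07), and BBX21 differed by −0.53 ± 0.08.

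Photoreceptor genes and the COP1 and SPA regulators split both ways, with 7 of 15 passed higher and 5 lower, and the list's median of 0.06 became −0.01 after quantile normalization. SPA3 and SPA4, partners of the COP1 ubiquitin ligase that restrains light responses in the dark, had the largest differences, at 1.71 ± 0.07 and 1.38 ± 0.10. SPA3 had 112, 107 and 111 units at ZT45, against 34.9, 32.4 and 32.7 at ZT27. PHYB, a red-light receptor, differed by 0.46 ± 0.06 and PHYA, the far-red receptor, by −0.45 ± 0.06, and the blue-light receptor gene CRY2 by −0.63 ± 0.05. CRY1 had 108, 100.56 and 111 units at ZT45 and 104, 101.29 and 100.57 at ZT27 and overlapped.

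SIG5, the gene disrupted in sig5-3, was higher at ZT45 in the wild type. It encodes a nuclear-encoded sigma factor that directs the plastid RNA polymerase to chloroplast promoters and is known to respond to light, stress and the clock. SIG5 had 46.2, 41.4 and 50.6 units at ZT45, against 7.32, 9.97 and 10.15 at ZT27, a log2 difference of 2.28 ± 0.19 (adjusted p = 3.7e-09, limma), with no overlap. SIG1 had 138, 129.5 and 132 units at ZT45 and 51.8, 50.3 and 52.2 at ZT27 (1.36 ± 0.10), and SIG4 differed by −0.36 ± 0.06. SIG2, SIG3 and SIG6 did not pass, with log2 differences of 0.02 ± 0.05, 0.10 ± 0.05 and 0.01 ± 0.05. No plastid-encoded gene had a value, so the transcripts made by these factors were not measured.

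Photosynthesis genes differed by step. Calvin cycle genes, which fix carbon dioxide, were higher: 15 of 17 passed higher and none lower (median 0.74). RCA, which activates Rubisco, had 12139, 11420.1 and 11745 units at ZT45, against 6164, 5312 and 5399 at ZT27 (1.07 ± 0.08), and FBA1, a chloroplast aldolase, differed by 1.56 ± 0.09, the only member called. SBPASE, which regenerates the carbon dioxide acceptor, differed by 1.02 ± 0.07 and GAPA by 0.87 ± 0.06. CP12-1, a regulatory linker protein, had 598, 623 and 587 units at ZT45 and 636, 606 and 591 at ZT27, while CP12-2 differed by 0.81 ± 0.09. The 4 RBCS genes for the small subunit of Rubisco are near-identical copies, so reads may have been assigned to the wrong copy. RBCS1A differed by 0.32 ± 0.09 and RBCS3B by 0.51 ± 0.09, but after quantile normalization these were 0.00 and −0.27, and 2 Calvin cycle genes then passed lower.

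Light-harvesting complex genes were mixed, with 3 of 18 passed higher and 7 lower and a median of −0.13. After quantile normalization 11 passed lower, and without ZT27 replicate 1, the highest ZT27 library in 16 of the 18, 5 passed higher. LHCB1.2 had 2419, 2278 and 2287 units at ZT45, against 5429, 4713 and 4156 at ZT27 (−1.03 ± 0.11), and LHCB1.4 differed by −1.28 ± 0.15. The LHCB1 and LHCB2 genes are near-identical in sequence, so how reads were shared among the copies is uncertain. LHCB4.3, a minor antenna gene also called LHCB8, stood apart, with 214, 216 and 199.97 units at ZT45 and 38.6, 29.3 and 28.9 at ZT27 (2.70 ± 0.15). Among 20 nuclear photosystem and electron transport genes 8 passed higher and 3 lower, with a median of 0.06, but after quantile normalization 5 passed higher and 10 lower with a median of −0.10, and without ZT27 replicate 1 only 1 passed lower. PSBS, the sensor for the dissipation of excess light, had 2447, 2455 and 2285 units at ZT45 and 1301, 1095 and 1181 at ZT27 and the largest difference of that list (1.01 ± 0.08).

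Pigment synthesis genes were mostly higher. In chlorophyll synthesis 10 of 13 passed higher and 1 lower (median 0.38), and after quantile normalization 8 passed higher and 2 lower (median 0.26). GUN4, a cofactor of magnesium chelatase, had 193, 196 and 190.1 units at ZT45, against 74.3, 72.8 and 75.4 at ZT27 (1.37 ± 0.08), and CAO, which makes chlorophyll b, differed by 1.29 ± 0.12 and HEMA1, the first committed step, by 1.27 ± 0.08. PORB, a light-dependent protochlorophyllide reductase, was the exception, with 273, 302 and 237 units at ZT45 and 1133, 942 and 883 at ZT27 (−1.86 ± 0.10). In isoprenoid and carotenoid synthesis 7 of 10 passed higher and 2 lower (median 0.51), with ABA1, zeaxanthin epoxidase, at 0.99 ± 0.05 and PSY, phytoene synthase, at 0.95 ± 0.08. NPQ1, the de-epoxidase that reverses the step of ABA1, moved against them, with 59.4, 55.2 and 57.7 units at ZT45 and 149.8, 129 and 128 at ZT27 (−1.23 ± 0.10).

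Among 14 genes of starch synthesis 8 passed higher and 3 lower (median 0.34), with GBSS1 far ahead of the rest. GBSS1, which makes amylose and is a known target of CCA1 and LHY, had 247, 253 and 243 units at ZT45, against 9.32, 10.9 and 15.5 at ZT27, a 20.8-fold ratio of means (4.35 ± 0.14). APL3, a subunit of ADP-glucose pyrophosphorylase, differed by 1.46 ± 0.09 and APL1, the main leaf subunit, by 0.37 ± 0.07. SBE2.1, SS4 and ISA1 passed lower, at −0.67 ± 0.07, −0.55 ± 0.11 and −0.47 ± 0.07.

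Starch breakdown takes place at night and begins with phosphorylation of the granule. Of 19 measured genes 6 passed higher and 10 lower (median −0.28), with 3 called higher and 4 called lower. SEX1, the glucan water dikinase, had 137, 142 and 120.2 units at ZT45, against 602, 509 and 455 at ZT27 (−1.96 ± 0.09), and PWD, which follows it, differed by −1.07 ± 0.08. AMY3, a chloroplast alpha-amylase, had 68.2, 60.2 and 62.4 units at ZT45 and 318, 276 and 287 at ZT27 (−2.2 ± 0.08). PHS2, the cytosolic phosphorylase, had 86.8, 91.2 and 76.2 units at ZT45 and 568, 466 and 441 at ZT27 (−2.52 ± 0.10). The groups did not overlap in any of these 4. DPE1 and DPE2, which process maltotriose and maltose, differed by −1.52 ± 0.07 and −1.41 ± 0.07, and ISA3, a debranching enzyme, by −1.3 ± 0.09. The beta-amylase genes were divided. BAM4 passed lower (−0.34 ± 0.07), while BAM9, which lacks catalytic activity, had 125, 114 and 135 units at ZT45 and 10.6, 13.4 and 14.0 at ZT27 (3.26 ± 0.12), BAM3, the main chloroplast enzyme, differed by 1.51 ± 0.08 and BAM1 by 1.31 ± 0.08. BAM5 was higher by 2.02 ± 0.41 from unsteady values, 3.86, 8.26 and 5.47 units at ZT45 and 1.66, 1.79 and 0.186 at ZT27, and did not pass in a fit of the 6 libraries alone (adjusted p = 0.059, limma). SEX4, LSF1 and MEX1 did not pass, at −0.27 ± 0.12, −0.05 ± 0.06 and 0.13 ± 0.08. The result for SEX4 depended on the setting. SEX4 passed lower in a fit of the 6 libraries alone and after quantile normalization (adjusted p = 0.046 in each, limma). It also passed lower without ZT27 replicate 3 (0.035) or ZT45 replicate 2 (0.048).

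**Figure D4:**
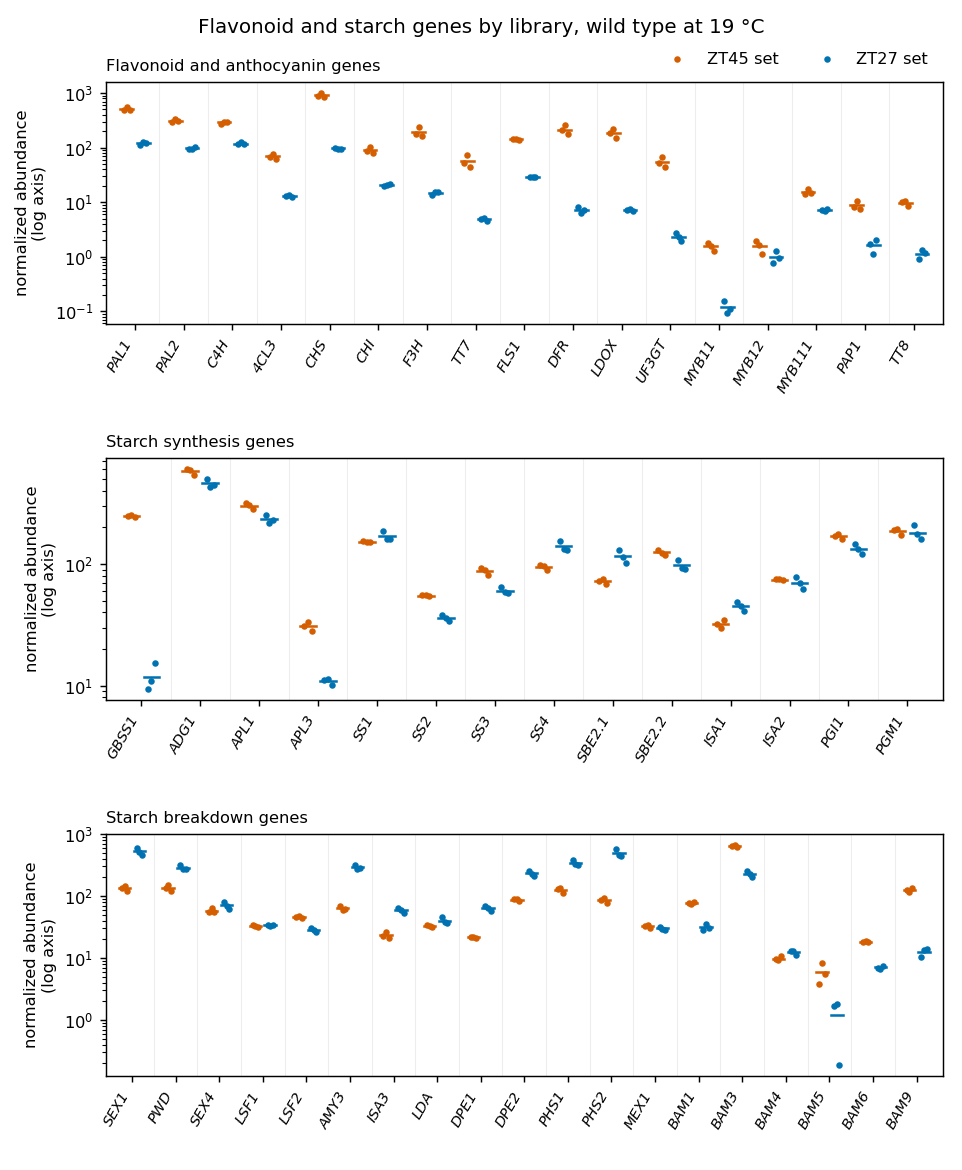
Normalized abundance (log axis) by library for flavonoid, starch synthesis and starch breakdown genes, with ZT45 (orange) left of ZT27 (blue), 3 points a group and a bar at the mean. All flavonoid genes except MYB12 are separated upwards at ZT45, GBSS1 has the widest gap among the synthesis genes, and SEX1, AMY3, PHS2 and the DPE genes lie below while BAM1, BAM3 and BAM9 lie above their ZT27 values.

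Sugar starvation genes, which rise when carbon runs short, were mostly lower, with 7 of 11 passed lower and 1 higher (median −0.48). DIN10 had 64.0, 48.2 and 90.8 units at ZT45, against 167, 216 and 225 at ZT27 (−1.61 ± 0.19), and BT2 had 25.3, 26.8 and 32.6 units at ZT45 and 76.0, 92.7 and 111 at ZT27 (−1.70 ± 0.16). DIN6, an asparagine synthetase gene widely used as a mark of starvation, overlapped, with 25.9, 21.4 and 42.5 units at ZT45 and 17.64, 46.1 and 31.4 at ZT27. The 1 higher member, TPS5 (0.26 ± 0.08), did not pass without ZT27 replicate 2 or ZT45 replicate 2. Among the 7 lower members, BCAT2 (−1.08) and TPS11 (−0.45) did not pass in a fit of the 6 libraries alone (adjusted p = 0.27 and 0.16, limma). Neither BCAT2 nor TPS11 passed without ZT27 replicate 2 or ZT45 replicate 1 or 2, so the majority of lower members depends on the fit.

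Cold-regulated genes were lower at ZT45 although neither group was chilled. Of 13 measured members 9 passed lower and 1 higher (median −0.85), and CBF1, CBF3, RD29B and GOLS2 had no values. COR15B, a chloroplast protectant, had 2.64, 4.52 and 2.43 units at ZT45, against 33.6, 31.1 and 30.1 at ZT27 (−3.16 ± 0.19). RD29A had 13.8, 18.4 and 13.9 units at ZT45 and 73.8, 78.8 and 71.6 at ZT27 (−2.26 ± 0.11), and the dehydrin gene COR47 had 57.9, 58.4 and 56.0 units at ZT45 and 170.2, 205 and 221 at ZT27 (−1.78 ± 0.10). KIN2 differed by −1.64 ± 0.14 whereas its near copy KIN1 overlapped, with 12.7, 18.5 and 8.0 units at ZT45 and 10.4, 13.2 and 19.5 at ZT27, and reads can be split wrongly between such copies. CBF2, the one activator of the CBF group with values, had 0.293, 0.20 and 0.368 units at ZT45 and 0.895, 0.917 and 0.929 at ZT27 (−0.85 ± 0.12). ZAT12 was the 1 higher member (0.38 ± 0.15, adjusted p = 0.047, limma, with overlap), and it did not pass (0.05 to 0.26) without ZT27 replicate 1 or 3 or ZT45 replicate 2 or 3, at a pseudocount of 2 (0.094), in a fit of the 6 libraries alone (0.056) or without the mean trend and robust settings (0.054).

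The 4 chloroplast DnaJ genes, co-chaperones of the chloroplast, were all lower, with DJC76 at 11.9, 12.9 and 9.67 units at ZT45 and 113, 93.6 and 90.08 at ZT27 (−3.05 ± 0.16) and J8, J11 and J20 at −1.14 ± 0.17, −1.05 ± 0.12 and −0.90 ± 0.11. Of 4 measured heat shock genes 3 passed lower (median −0.43), led by HSP90.1 (−0.76 ± 0.21), and only 1 passed when ZT27 replicate 2 or 3 or ZT45 replicate 1 or 2 was left out.

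The 3 catalase genes, whose products remove hydrogen peroxide, moved in different directions. CAT2, the catalase of photorespiration with a morning peak, had 1966, 1881 and 1960.0 units at ZT45, against 349.9, 359 and 367 at ZT27 (2.43 ± 0.06). CAT3, its evening counterpart, had 419, 426 and 384 units at ZT45 and 1623, 1521 and 1216 at ZT27 (−1.82 ± 0.11), and CAT1 differed by −1.2 ± 0.09. None of the 3 had overlapping groups. CSD2, a chloroplast superoxide dismutase, had the largest difference among the dismutases (1.05 ± 0.09). In the list of catalases and dismutases 7 of 10 passed higher and 2 lower (median 0.24), and 4 passed higher after quantile normalization.

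Nitrate and sulfate assimilation genes passed higher in 8 of 11 cases and lower in 1 (median 0.54). APR2, the main reductase of sulfate assimilation, had 367, 360.5 and 366 units at ZT45, against 92, 89.9 and 93 at ZT27 (1.99 ± 0.06), and APR1 and APR3 differed by 0.68 ± 0.09 and 0.37 ± 0.08. NIA2, the main nitrate reductase, had 1241, 1207 and 1239.9 units at ZT45 and 423, 492 and 453 at ZT27 (1.43 ± 0.08), and NIA1 had 209, 198 and 222 units at ZT45 and 155, 185 and 199.7 at ZT27, with overlap. GLU1, which assimilates ammonium in leaves, differed by 0.94 ± 0.06. NRT2.1, a high-affinity nitrate transporter of roots, was the 1 lower member (−0.77 ± 0.21).

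Glucosinolate synthesis genes shifted by small amounts, 8 of 13 higher and 1 lower with a median of 0.23, and BCAT4 (0.54 ± 0.08) and CYP83A1 (0.45 ± 0.07) of the methionine branch moved most. The 8 became 4 without ZT45 replicate 2 and 5 without ZT27 replicate 3, and the 1 became 2 without ZT45 replicate 2 or 3. Of 11 touch, wound and jasmonate genes 4 passed higher and none lower (median 0.35). LOX2, which starts jasmonate synthesis, had 718, 1072 and 700.4 units at ZT45, against 469.6, 544 and 330.3 at ZT27 (0.89 ± 0.17), and TCH2, AOS and VSP2 passed too. In a fit of the 6 libraries alone neither LOX2 (adjusted p = 0.064, limma) nor VSP2 (0.17) passed, and VSP2 did not pass without ZT27 replicate 3 (0.051). TCH4, a touch-induced wall enzyme, overlapped, with 15.2, 16.6 and 22.3 units at ZT45 and 15.4, 21.5 and 18.9 at ZT27.

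The 12 largest increases that averaged at least 10 units and whose groups did not overlap were LHY, DFR, ELIP2, LDOX, GBSS1, RVE8, UF3GT, ELIP1, CCA1, GSTF12, AT1G64500 and AT1G65490. GSTF12, a glutathione transferase needed for anthocyanin to reach the vacuole, had 90.5, 112 and 88 units at ZT45, against 7.01, 6.95 and 5.43 at ZT27 (3.81 ± 0.14). AT1G64500, annotated as a glutaredoxin family protein, differed by 3.75 ± 0.11, and AT1G65490, which has no annotated function, by 3.75 ± 0.13. The 12 largest decreases were FKF1, AT1G56300, AT2G33830, COR27, AT5G62360, AT3G62550, MEE14, PRR5, AT1G07050, CCL, GI and GRP7. AT1G56300, annotated with a DnaJ domain, had 0.787, 0.674 and 1.1 units at ZT45, against 51.1, 48.0 and 46.2 at ZT27 (−5.19 ± 0.10). MEE14 had 6.06, 6.37 and 6.76 units at ZT45 and 156, 155 and 157 at ZT27 (−4.51 ± 0.07), with little spread in either group. AT2G33830, a dormancy- and auxin-associated family gene, differed by −4.77 ± 0.17, AT5G62360, an invertase and pectin methylesterase inhibitor family gene, by −4.60 ± 0.09, AT1G07050, a CCT motif gene, by −4.13 ± 0.15 and CCL by −3.92 ± 0.07. Of the 428 called genes 72 belonged to a list and 356 to none. The lists held 307 genes with values, and 2.38% of all 17952 genes tested were called. Because the lists were chosen with earlier results of these data known, the 72 do not measure enrichment.

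Genes that are not protein coding numbered 437 among those tested, of which 13 were called higher and 5 lower. Over all 17952 genes tested, 271 (1.51%) were called higher and 157 (0.875%) lower. Several lie opposite a protein-coding gene on the other strand, and since no source states counting by strand, reads of such pairs cannot be told apart. AT3G51238 had 22.0, 27.0 and 21.0 units at ZT45, against 1.48, 2.60 and 2.34 at ZT27 (3.19 ± 0.20), and lies opposite F3H, which differed by 3.64 ± 0.14. AT5G15845 differed by 2.18 ± 0.13 and overlaps both CO and COL1. AT5G23235 differed by −3.29 ± 0.21 and lies opposite DJC76. These 3 genes were chosen after their values were seen.

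Of 10 reference genes for transcript measurement 1 passed higher, GAPC1 (0.31 ± 0.07), and 1 lower, UBC21 (−0.20 ± 0.07), which did not pass without ZT27 replicate 1 or 3 or ZT45 replicate 2, and PP2AA3 had 45.9, 41.9 and 44.1 units at ZT45, against 45.7, 42.0 and 42.2 at ZT27. The label gives whole seedlings, and all 6 green tissue markers had values, with sums of 51093 to 53730.2 units at ZT45 and 41916 to 51480.2 at ZT27, with 3 passed higher and 2 lower. Their log2 differences ran from −1.03 ± 0.11 in LHCB1.2 to 1.07 ± 0.08 in RCA. Of 8 root markers 5 had values and COBL9, EXPA7 and HKT1 had none. The 5 summed to 66.7 to 72.5 units at ZT45 and 55.4 to 59.6 at ZT27, without overlap, with SCR higher (0.52 ± 0.07) and NRT2.1 (−0.77 ± 0.21) and PIN2 (−0.50 ± 0.19) lower, PIN2 not without any one of 5 of the 6 libraries. SHR (0.16) and PHO1 (0.11) did not pass. SCR alone averaged 37.2 units at ZT45 and 25.7 at ZT27, so the gap in the sum follows SCR and is not shared by the set. Neither the 5 epidermis and guard cell markers, which summed to 279.8 to 319 units at ZT45 and 289 to 299 at ZT27, nor the 3 phloem markers, at 122 to 128 units at ZT45 and 118 to 140.8 at ZT27, held a member that passed. STM, the 1 meristem marker of 3 with values, had 3.40, 2.49 and 3.24 units at ZT45 and 3.00, 3.39 and 3.20 at ZT27. The part of tissue makeup in the results was not tested.

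The same contrast in sig5-3 at 19 °C rests on 6 other libraries. There 327 genes were called higher (1.82%) and 176 lower (0.98%). Of the 271 genes called higher in the wild type 253 were also called higher in sig5-3, which is 93.4% of the wild-type list and 77.4% of the sig5-3 list. Of the 157 called lower 151 were called lower there, 96.2% of the first list and 85.8% of the second. The difference between the genotypes in this contrast, tested directly, was called for 0 genes and passed for 0 (limma), with 597 genes at an unadjusted p under 0.05. Without ZT27 replicate 3 of the wild type 1 gene was called and 3 passed. LHY averaged 306 ± 9.0 units at ZT45 and 7.59 ± 0.591 at ZT27 in sig5-3 and 303 ± 17.8 units at ZT45 and 7.55 ± 1.48 at ZT27 in the wild type (SD, n = 3 each), and SIG5 averaged 9.45 ± 0.863 units at ZT45 and 1.3 ± 0.653 at ZT27 in sig5-3, against the wild-type values above. The log2 difference of SIG5 between the sets was 2.52 in sig5-3 and 2.28 in the wild type. DFR differed by 5.25 in sig5-3 and by 4.78 in the wild type (wild type minus sig5-3 −0.47 ± 0.32, adjusted p = 1, limma).

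The chilled wild-type plants, also 6 other libraries, give the contrast with 3 h of chilling at ZT45 and 5 h at ZT27. Called genes were 258 higher (1.44%) and 412 lower (2.3%), and the length of chilling differs along with the time. Of the 271 genes called higher at 19 °C 133 were called higher at 4 °C, 49.1% of the first list and 51.6% of the second, and of the 157 called lower 111 were called lower, 70.7% and 26.9%. The contrast at 19 °C minus that at 4 °C was called for 285 genes (1.59%), positive for 236 (1.31%) and negative for 49 (0.273%). Of the 236, the contrast was positive at both temperatures in 36 and negative at both in 100. In the other 100 it was positive at 19 °C and negative at 4 °C. Where both contrasts were negative, a positive difference means a larger decrease at 4 °C. Of the 49, both were negative in 15, both positive in 12, and 22 were negative at 19 °C and positive at 4 °C. LHY, CCA1 and RVE8 were higher at ZT45 in both temperatures. LHY averaged 303 ± 17.8 units at ZT45 and 7.55 ± 1.48 at ZT27 at 19 °C and 343 ± 6.27 units at ZT45 and 73.9 ± 3.17 at ZT27 at 4 °C, so that its contrast was larger at 19 °C by 3.04 ± 0.17. CCA1 and RVE8 were larger by 2.73 ± 0.21 and 2.64 ± 0.20. PRR9 was lower at ZT45 in the cold, 3.48 ± 0.0761 units at ZT45 and 47.3 ± 1.31 at ZT27, and showed no separation at 19 °C (difference 3.17 ± 0.32). LNK1, LNK2 and LNK4 were lower at ZT45 in the cold: LNK1 averaged 31.8 ± 1.69 units at ZT45 and 20.9 ± 0.203 at ZT27 at 19 °C and 10.05 ± 0.922 units at ZT45 and 79.9 ± 1.42 at ZT27 at 4 °C (difference 3.53 ± 0.19), and LNK4 differed in the same way by 3.43 ± 0.28. The contrast of TOC1 was −2.2 at 19 °C and −2.22 at 4 °C (difference 0.03 ± 0.08, adjusted p = 0.86, limma), a difference that was −0.05 after quantile normalization. SIG5 averaged 46.1 ± 4.61 units at ZT45 and 9.15 ± 1.58 at ZT27 at 19 °C and 142 ± 7.38 units at ZT45 and 92.8 ± 3.66 at ZT27 at 4 °C (difference 1.67 ± 0.26). Among outputs GBSS1 had a larger contrast at 19 °C by 2.2 ± 0.19 and CHS by 1.88 ± 0.16. BAM3 was higher at ZT45 at 19 °C and lower at 4 °C (difference 1.98 ± 0.12).

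**Figure D5:**
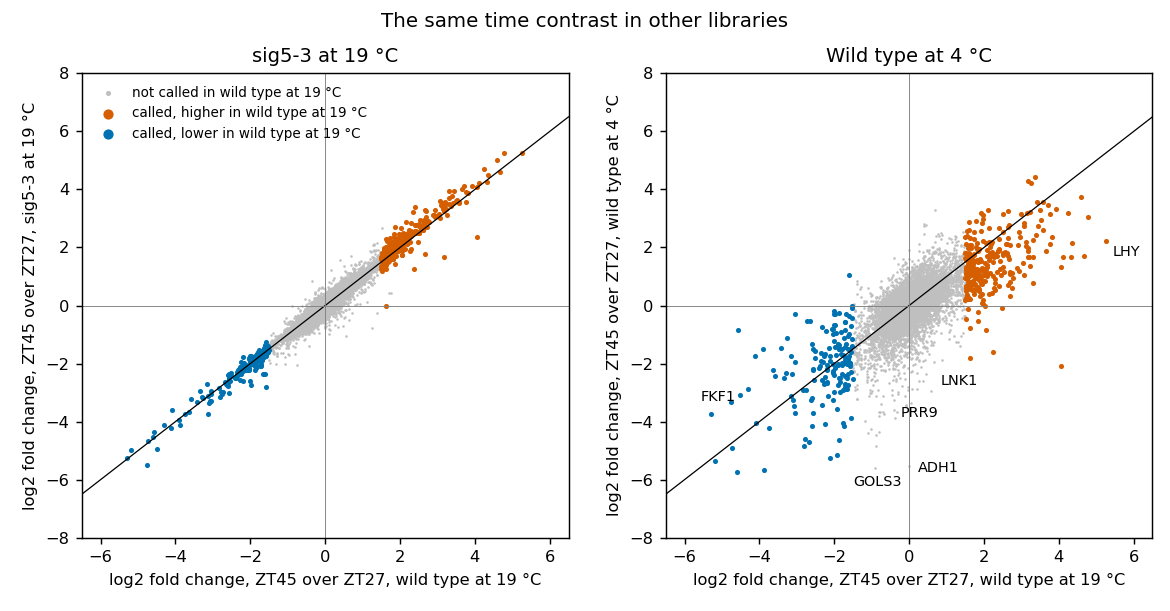
Log2 fold change, ZT45 over ZT27, of each gene in sig5-3 at 19 °C (left) and in wild type at 4 °C (right) against the same fold change in wild type at 19 °C, with the line of equal values and the called genes of wild type at 19 °C in colour. Points hug the line in sig5-3 and spread widely at 4 °C, where ADH1, GOLS3, PRR9 and LNK1 lie far below it.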

How the data were processed

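Per the labels' protocols, polyadenylated RNA of pooled seedlings was made into TruSeq Stranded mRNA libraries, and per the submitters' processing notes the tools were STAR 2.4.1d and Partek 6.6. The deposited table gives, for each gene and library, a normalized read signal scaled by the authors, with no division by gene length. About 90% of low values were whole multiples of a step per library (89.6% to 90.4%, within a tolerance of 0.05), too few to recover counts, so no count model was used. How the values were scaled, and whether counting used strand, was not stated in the labels or the table.

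Genes without numbers were left out (17952 of 37336 stayed, none of them plastid or mitochondrial). All 24 libraries were fitted with 1 mean per group in limma 3.58.1 (R 4.3.3) on log2(value + 0.5), with mean trend and robust settings, 16 residual degrees of freedom and Benjamini-Hochberg adjustment. The residual spread is thus shared by the 8 groups, and p-values measure the spread between these pools. The most deviant library, chilled sig5-3 replicate 1 of ZT27 (root mean square deviation 0.263 in log2), lies outside the main contrast. Leaving it out kept 428 called genes. Some genes reported as not passing then passed, among them PRR9, EXPA1 and SEX4. Genotype and temperature differences of the contrast were tested in the same fit, and the fit was tested on simulated data. Names, positions and promoters are from RefSeq TAIR10.1, to which all 17952 gene IDs matched. Tables and plots used Python 3.11.15, pandas 2.3.3, numpy 2.4.6 and matplotlib 3.10.9.

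Named genes were the 12 largest changes each way among called genes that averaged at least 10 units without overlap, the 5 largest temperature differences each way, and members of the gene lists. The members and lists were chosen with earlier results of these data known, and a fold change on this scale understates low genes. Other pseudocounts, a filter on low values, other scalings, a replicate block, other fits and left-out libraries were tried as alternatives.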

Additional observations from a re-analysis of the deposited data

Results flagged for a closer look

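The change between ZT45 and ZT27 differed between wild-type plants at 19 °C and at 4 °C in 285 genes, by limma's test of the difference itself, and the 5 largest differences each way were singled out. Values are the log2 change at 19 °C minus that at 4 °C, and the chilled sets differ in hours of chilling as well as in time. AT4G06665, a noncoding gene opposite BAM3, differed by 6.16 ± 1.54 (adjusted p = 0.0065, limma), with 10.13, 27.2 and 2.11 units at ZT45 and 0.0177, 0.0105 and 0.117 at ZT27 at 19 °C. The first and second of the ZT27 values are below what 3 reads were worth, so its fitted change depends on the pseudocount. Its libraries were uneven in the cold too, at 15.6 ± 20.9 units at ZT45 and 38.4 ± 16.3 at ZT27 (SD, n = 3 each). ADH1, alcohol dehydrogenase, differed by 5.55 ± 0.17, and at 4 °C it averaged 7.39 ± 0.413 units at ZT45 and 368 ± 6.70 at ZT27. At 19 °C ADH1 averaged 6.56 ± 1.01 units at ZT45 and 6.52 ± 0.525 at ZT27. GOLS3, galactinol synthase, differed by 4.68 ± 0.21, with 8.65 ± 0.624 units at ZT45 and 445 ± 9.18 at ZT27 at 4 °C and 0.948 ± 0.308 units at ZT45 and 2.21 ± 0.0442 at ZT27 at 19 °C. AT1G70640 differed by 3.95 ± 0.20 and LEA3, a late embryogenesis abundant protein gene, by 3.84 ± 0.14. LEA3 was higher at ZT45 at 19 °C, with 27.4 ± 2.79 units at ZT45 and 5.39 ± 0.563 at ZT27, and lower at 4 °C, with 55.2 ± 5.00 units at ZT45 and 167 ± 9.51 at ZT27.

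AT3G62550 differed by −3.71 ± 0.16, with 4.06 ± 0.356 units at ZT45 and 108 ± 6.84 at ZT27 at 19 °C and 5.6 ± 0.112 units at ZT45 and 10.6 ± 0.867 at ZT27 at 4 °C. DJC76 differed by −2.77 ± 0.23 and AT2G46940 by −2.59 ± 0.20. GER3, a germin-like protein gene, differed by −2.63 ± 0.17 and ran in opposite directions, with 307 ± 39.8 units at ZT45 and 928 ± 35.6 at ZT27 at 19 °C and 550.1 ± 33.0 units at ZT45 and 268 ± 16.2 at ZT27 at 4 °C. CCL differed by −2.43 ± 0.10.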

How the results depend on the processing

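The 428 called genes were 1011 (625 higher, 386 lower) at a log2 fold change over 1, and all 428 were among the 505 at a pseudocount of 0.1 and the 430 after median ratio scaling. All 311 genes called at a pseudocount of 2, all 337 at a mean of at least 10 and all 424 in a fit of the 6 libraries alone were among them, as were 419 of 450 after quantile normalization. Leaving out each library of the contrast in turn gave 421 to 445 called genes (261 to 286 higher, 158 to 170 lower) and 6502 to 6695 passed. The labels do not say whether replicate numbers pair the libraries. The deviations of same-numbered libraries correlated at 0.0959, −0.00385 and 0.0228, and those of differently numbered ones at −0.19 to 0.157. With 3 libraries a group these values cannot decide whether a batch was shared. The main fit left the numbers out, and the limma fit with a replicate block called 428, with FT at an adjusted p of 0.052 in it. The genotype difference was called for 1 gene and passed for 3 without ZT27 replicate 3 of the wild type (0 to 1 called and 0 to 3 passed over the libraries left out). The temperature difference was called positive for 155 genes at a mean of at least 10 and negative for 76 at a pseudocount of 0.1. With each library left out it was called for 273 to 303 genes. Values under about 0.1 units correspond to at most a few reads. Among the genes named, those whose log2 change took the other sign in some alternative had not passed in the fit reported, except RBCS1A and RBCS3B, and the cause was not tested. SIG2 had −0.01 to 0.08 with libraries left out and −0.06 after quantile normalization. PIF3 had −0.08 to 0.02 with libraries left out. PP2AA3 had −0.01 to 0.06 with libraries left out and 0.00 after quantile normalization. STM had −0.15 to 0.05 with libraries left out. RBCS1A had 0.00 after quantile normalization. ADH1 had −0.11 to 0.09 with libraries left out and 0.01 after median ratio scaling and 0.00 at a pseudocount of 2 and 0.02 after quantile normalization. SIG6 had −0.02 to 0.04 with libraries left out and −0.06 after quantile normalization. CP12-1 had −0.04 to 0.01 with libraries left out. DIN6 had −0.40 to 0.28 with libraries left out. CRY1 had −0.02 after quantile normalization. CO had −0.14 to 0.04 with libraries left out. KIN1 had −0.44 to 0.13 with libraries left out. RBCS3B had −0.27 after quantile normalization. TCH4 had −0.21 to 0.06 with libraries left out. TOC1 (temperature difference) had −0.02 to 0.07 with libraries left out and −0.05 after quantile normalization.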

Other observations

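Beyond the lists, called genes of antioxidant and pigment synthesis were looked up after their values were seen. VTC2, which commits carbon to vitamin C, had 479, 475 and 462 units at ZT45, against 83.5, 91.8 and 92 at ZT27 (2.40 ± 0.07 on the log2 scale). The tocopherol genes G-TMT and VTE1 differed by 2.22 ± 0.08 and 1.72 ± 0.07, and BETA-OHASE 2, a carotene hydroxylase, by 3.08 ± 0.12. RUP2, a repressor of UV-B signalling, had 21.9, 22.1 and 22.8 units at ZT45 and 3.27, 3.99 and 4.01 at ZT27 (2.42 ± 0.11). Among genes called lower, RbcX1, a Rubisco assembly chaperone, had 3.57, 3.43 and 3.22 units at ZT45 and 34.1, 29.8 and 31.1 at ZT27 (−3.04 ± 0.08). The stress transcription factor genes HSFA8, DREB2C and ABF1 differed by −2.04 ± 0.24, −2.25 ± 0.13 and −2.32 ± 0.06. None of these genes had overlapping groups, but the same held for every called gene except 1, so it follows from choosing called genes.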
